A study of Mus musculus with 4 samples.

Results

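The 10 genes described here are AP-1, Myc and immediate early genes, followed in B16F10 cells with and without knockdown of lamin A/C: 6 subunits of the transcription factor AP-1 (Fos, Fosl1, Fosl2, Jun, Junb and Jund), the AP-1 partner Atf3, and the early response genes Egr1, Ier2 and Myc. They were taken by gene symbol, and all 10 were found among the 24421 genes of the deposited count matrix. B16F10 is a mouse melanoma line, here transduced with lentivirus, selected and expanded in 2.5 µg/ml puromycin and grown in DMEM with 10% FBS. The shControl cells carried an empty control vector, and the shLmna cells carried a short hairpin RNA against exon 8 of Lmna, which encodes lamins A and C (lamin A/C). Both groups therefore went through lentiviral transduction and drug selection, and the effect of carrying any hairpin cannot be told apart from that of the Lmna hairpin. RNA was profiled by bulk MARS-seq, which counts the 3′ end of polyadenylated transcripts, in 2 libraries of each group. The methods do not state whether the 2 libraries of a group were separate transductions or cultures, so p-values here measure the spread between libraries, which may be technical. How long before harvest the medium was changed is not stated either, and the libraries are read as cells under growth conditions, not as a timed stimulation.

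AP-1 is a dimer of basic leucine zipper proteins. Jun proteins pair with each other or with Fos and Atf proteins, whereas Fos proteins do not form stable dimers among themselves. Pairs of Jun with Jun or Fos proteins bind the TPA response element TGACTCA. Most of these genes are switched on within minutes of serum, growth factor or stress through ERK, JNK and p38 kinases acting on serum response factor and its ternary complex partners, and their mRNAs decay rapidly, in part through AU-rich elements in the 3′ untranslated region. Lamin A/C is known to bind c-Fos at the nuclear envelope, from which ERK can release it, and melanoma lines commonly have active ERK signalling.

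None of the 8 genes with enough counts for a test passed it in the comparison of shLmna with shControl. The Jun family, Atf3, Myc and Ier2 had 95% intervals inside a 2-fold change. Fos and Fosl2 were low and were not resolved to within 2-fold. Fosl1 was the exception by size: it had 13 counts in shControl and 1 in shLmna, too few for the main test. Around these genes, the mRNA of Zfp36l1, an immediate early gene for a protein that binds AU-rich elements, fell by 4.77 on the log2 scale, Rhob fell, and Nr4a3 rose. These were the only calls among 25 other immediate early genes tested. Of the 25, 4% were higher and 8% lower, against 5.48% and 9.74% of all tested genes. With a correction for the GC content of the counted 3′ ends, the log2 fold change of Zfp36l1 was -3.30.

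Totals ran from 2494880 to 3808843 counts a library, and 9150 genes passed the filter on low counts. Lmna itself had 2826 and 2684 counts in shControl, against 331 and 480 in shLmna, so the labels of the 4 libraries hold (log2 fold change -2.61 ± 0.142, SE, edgeR adjusted p = 7.93e-06). Counts were scaled with TMM factors to a library of 1000000 counts (CPM), and genes with an adjusted p under 0.05 in edgeR's quasi-likelihood test were called. The 7 melanocyte markers were present, with a summed level of 20100 to 20900 CPM in shControl and 21200 to 24600 CPM in shLmna. Leukocyte markers summed to 14.7 to 18 and 11.5 to 13.4 CPM, and 3 of the 5 (Ptprc, Cd3e and Itgam) were at 0 in all 4 libraries. Fibroblast markers summed to 6.81 to 7.23 CPM in shControl and 2.37 to 4.63 CPM in shLmna, with 2 of 5 (Dcn and Lum) at 0. Endothelial markers (3 of 5 at 0) summed to 0.619 to 1.34 CPM and 0 to 0.272 CPM, epithelial markers (3 of 6 at 0) to 2.95 to 5.89 CPM and 0.396 to 1.63 CPM, and the part of these cell types in the results was not tested. In bulk RNA, fewer cells with a transcript and less of it per cell cannot be told apart.

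The counted 3′ ends hold the sequences for which these mRNAs are known. The pentamer ATTTA, the core of AU-rich elements, was found on the transcribed strand in the last 1000 bases of 9 of the 10 genes (all but Ier2), against 65.1% of the tested genes with a sequence. The longer nonamer TTATTTATT, which contains the pentamer, was found in 2 of the 10, Fos and Fosl2, against 4.43% of tested genes. The nonamer sites of Fos and Fosl2 are shown because such elements are known as marks of short-lived mRNAs. A pentamer site of Myc and one of Jun, both among the 4 most abundant of the 10 genes, are shown with them. Each is written 5′ to 3′ on the transcribed strand, as DNA, with the element in capitals and its position in the GRCm38 genome, the build of all positions given here.
Fos, 3′ untranslated region, chr12:85477106-85477128, plus strand: tttcaatTTATTTATTaagatgg
Fosl2, 3′ untranslated region, chr5:32156874-32156896, plus strand: tattttaTTATTTATTttaaatg
Myc, 3′ untranslated region, chr15:61990140-61990158, plus strand: gatttgtATTTAattgttt
Jun, 3′ untranslated region, chr4:95049555-95049573, minus strand: aaaggatATTTAagaaaat
The Fos nonamer lies 161 bases before the annotated transcript end and the Fosl2 nonamer 962 bases before it. Fos, Fosl2 and Jun each held 4 pentamers, Atf3 held 3, Junb, Egr1 and Myc held 2, and Fosl1 and Jund held 1. No stretch of 31 bases in the last 1000 transcript bases was shared, in the transcribed sense, with a transcript of another gene. The opposite strand and the counted bases downstream of the transcript were not searched. A match to these letters is a description and does not show that a protein binds there.

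Levels ran from 0 CPM (Fosl1) to 120 CPM (Myc). Counts at the 3′ end do not scale with transcript length, so genes were ranked within a library by CPM. How fully the counted window captures a transcript may differ between genes and was not tested. Ranks and ratios between genes are therefore those of counts. Myc ranked first and Jund second in all 4 libraries. Jun took rank 3 and Ier2 rank 4 in both shControl libraries, and the order was the reverse in both shLmna libraries. The gap between the 2 genes was small in shLmna 1 (44.3 CPM for Jun and 46.3 CPM for Ier2) and larger in shLmna 2 (39.5 and 56.9 CPM), and it was not tested. Junb and Atf3 took ranks 5 and 6, and Fos, Fosl2, Egr1 and Fosl1 held the last 4 places.

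**Figure D1:**
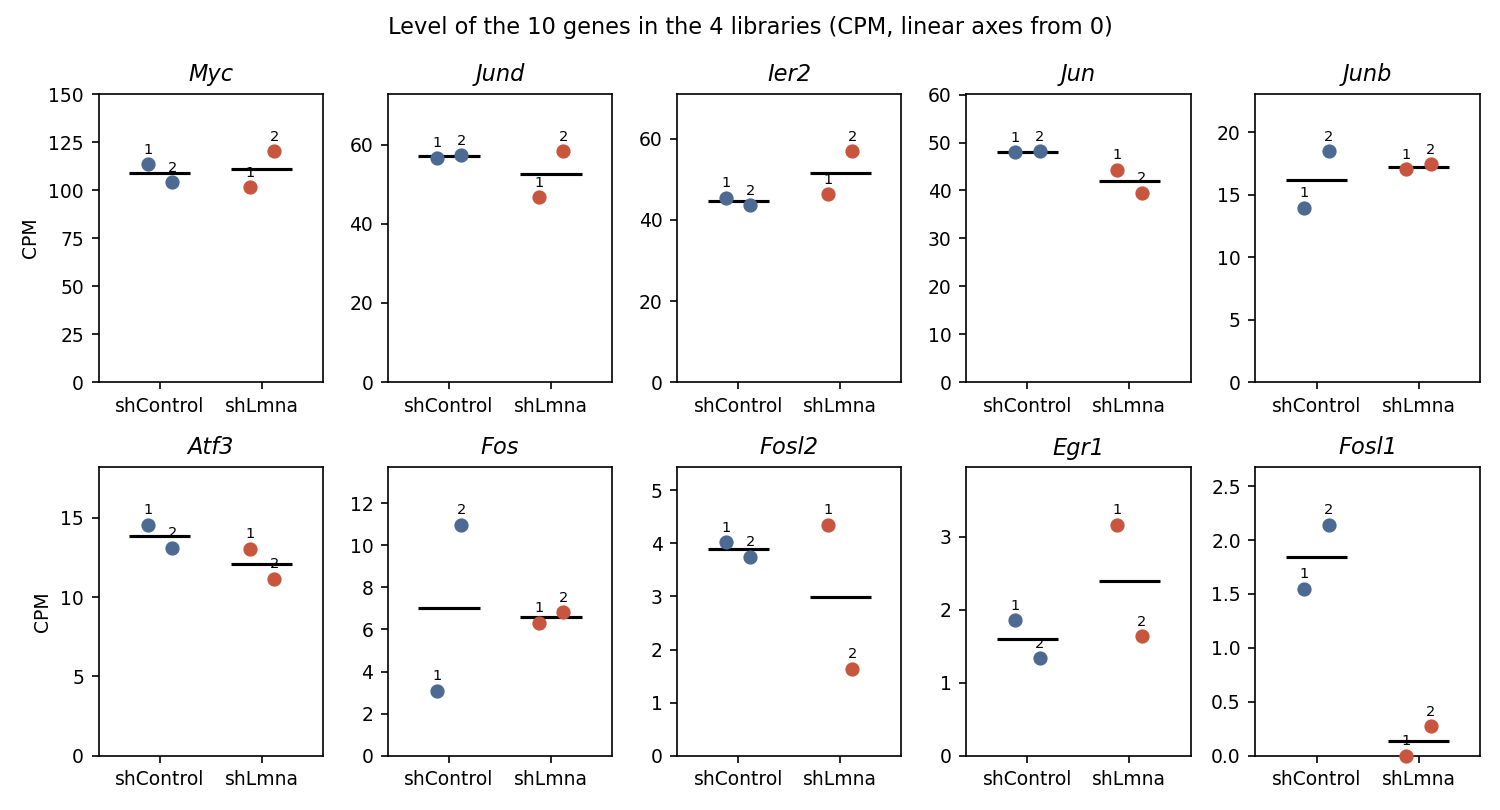
Level of each gene in CPM (vertical axes, linear and starting at 0, a separate scale for each gene) in the 2 shControl libraries (blue) and the 2 shLmna libraries (red), numbered by replicate, with the group mean as a black line. The 2 groups overlap for Myc, Jund and Junb, Fos differs most between the 2 shControl libraries, and Fosl1 is near 0 in both shLmna libraries.

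Of the Jun family, which supplies a partner in most AP-1 dimers, Jund was the most abundant. Jund (chromosome 8, 70698949 to 70700616, plus strand), which is known for a broad and steady expression, had 183 and 214 counts in shControl, against 118 and 214 in shLmna. In CPM this was 56.7 and 57.3 against 46.7 and 58.3, so that the 2 groups overlapped and shLmna 1 alone was low. The log2 fold change was -0.11 ± 0.162 (SE, edgeR adjusted p = 0.699). The counted end of Jund overlaps the antisense gene Gm11175, and the strand setting of the counting is not stated.

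Jun (chromosome 4, 95049034 to 95052222, minus strand), the gene of c-Jun, had 155 and 180 counts in shControl, against 112 and 145 in shLmna. Its levels were 48 and 48.2 CPM in shControl and 44.3 and 39.5 CPM in shLmna. Both shLmna libraries were thus below both shControl libraries, by an amount that did not pass the test (log2 fold change -0.20 ± 0.162, SE, edgeR adjusted p = 0.439). Junb (chromosome 8, 84974484 to 84978718, minus strand), whose protein can restrain c-Jun, had 45 and 69 counts against 43 and 64. At 13.9 and 18.5 CPM the 2 shControl libraries enclosed the shLmna libraries at 17 and 17.4 CPM, and the log2 fold change was 0.08 ± 0.244 (SE, edgeR adjusted p = 0.859).

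The Fos family was far less abundant. Fos (chromosome 12, 85473890 to 85477273, plus strand), the gene of c-Fos, had 10 and 41 counts in shControl, against 16 and 25 in shLmna, or 3.1 and 11 CPM against 6.33 and 6.81 CPM. Both shLmna libraries lay between the 2 shControl libraries. The level in shControl 2 was 3.54 times that in shControl 1, with an exact 95% counting interval of 1.75 to 7.93, whereas the shLmna libraries differed 1.08-fold (0.552 to 2.16). Fos and Myc in shLmna (1.18-fold, 1.01 to 1.39) were the only cases in which this interval excluded 1, among 19 pairs of same-group libraries over the 10 genes. Counting intervals cover counting error only. Over the 4 libraries the log2 fold change of Fos was -0.12 ± 0.508 (SE, edgeR adjusted p = 0.907), and its direction rested on 1 library: it was 1.08 without shControl 2 and -0.73 without shControl 1. Other stimulus-responsive genes were uneven in this respect. The shControl libraries were alike for Nr4a1 (105 and 109 CPM) and Dusp1 (23.5 and 24.9 CPM), whereas Klf4, a zinc finger gene named here after its values were seen, was also higher in shControl 2 (6.81 and 15 CPM). Ier3 (131 and 110 CPM) and Dusp2 (75.3 and 50.3 CPM), the latter also named after its values were seen, were lower in shControl 2.

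Fosl2 (chromosome 5, 32135801 to 32157842, plus strand), which encodes Fra-2, had 13 and 14 counts in shControl, against 11 and 6 in shLmna. At 4.35 CPM shLmna 1 was above the shControl libraries (4.03 and 3.75 CPM), and at 1.64 CPM shLmna 2 was below them. The log2 fold change was -0.46 ± 0.539 (SE, edgeR adjusted p = 0.615), -1.23 without shLmna 1 and 0.16 without shLmna 2.

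Fosl1 (chromosome 19, 5447547 to 5455946, plus strand) encodes Fra-1, an AP-1 subunit that ERK signalling is known to stabilise and that is linked to invasive growth. It had 5 and 8 counts in shControl, against 0 and 1 in shLmna, and it did not pass the filter on low counts. The pooled level was 11.3 times higher in shControl, with an exact 95% counting interval of 1.7 to 481, and the count of 0 in shLmna 1 allows up to 3 counts. Without the filter, the log2 fold change was -3.26 in edgeR (adjusted p = 0.0795, with an unadjusted p under 0.05). In DESeq2 it was -3.53, with an unadjusted p of 0.108 and no adjusted value. In the authors' batch-corrected log2 values, Fosl1 was lower by a small difference of -0.17 that passed the limma test (adjusted p = 0.0164). Passing was common with those values, which were tested without the filter on low counts: 1784 genes were called higher and 1992 lower. The main test called 501 and 891 of the genes that passed the filter, and edgeR without the filter called 750 and 1292. The counted end of Fosl1 overlaps Ccdc85b on the opposite strand, a gene named here after its values were seen. Ccdc85b had 3 and 4 counts in shControl, against 0 and 1 in shLmna, so the 2 neighbours showed the same pattern. If counting ignored strand, reads of the 2 genes cannot be told apart, and this was not tested.

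The composition of the 2 families is given as the share of each subunit in the family's counts. Jund made up 47% ± 1.1 (SD, n = 2) of Jun-family counts in shControl and 46.9% ± 5.21 in shLmna, Jun 39.7% ± 1.13 and 37.7% ± 4.77, and Junb 13.3% ± 2.23 and 15.4% ± 0.439. The differences of -0.0933, -2.02 and 2.11 percentage points were no larger than the spread between libraries. Within the Fos family, Fos made up 50.4% ± 20.8 in shControl and 68.7% ± 13.3 in shLmna, and Fosl2 34.3% ± 17.1 and 29.7% ± 15.5, again within the spread. The share of Fosl1 was 17.9% (exact binomial 95% interval 6.06 to 36.9) and 12.7% (5.65 to 23.5) in the shControl libraries. It was 0% (0 to 12.8) and 3.12% (0.0791 to 16.2) in the shLmna libraries, so that the groups did not overlap but the counting intervals did. With 2 libraries a group, an exact permutation test cannot give a p under 0.33, and none was used.

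**Figure D2:**
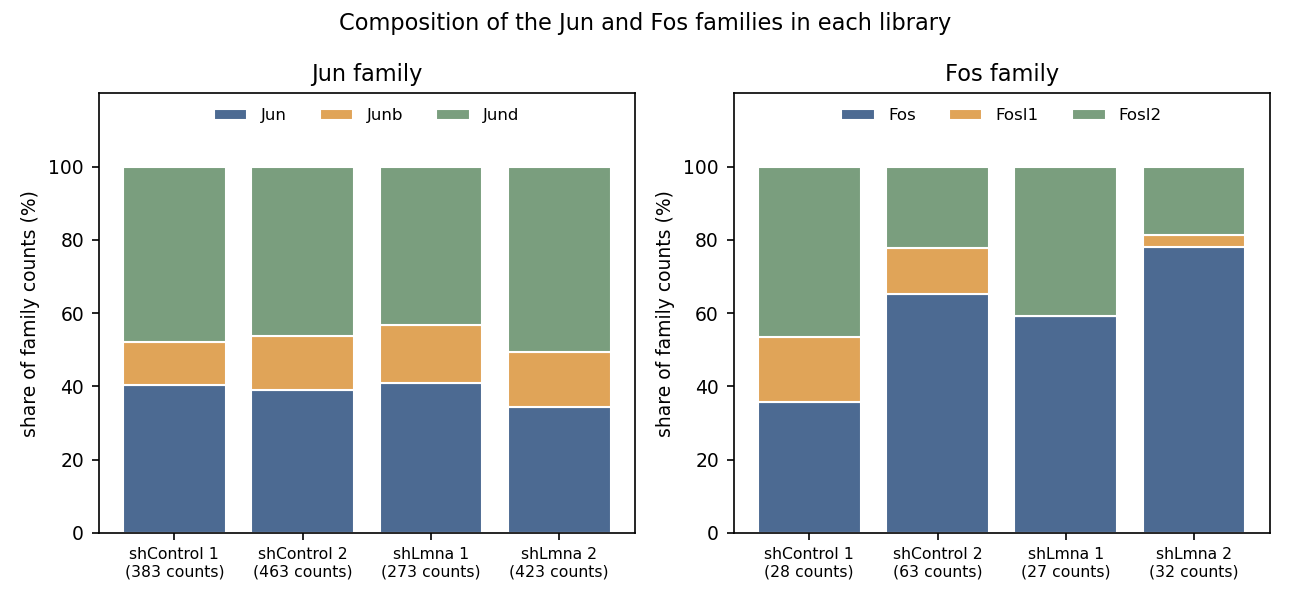
Share of each subunit (vertical axis, percent of the family's counts, with the counts under each bar) in the Jun family (left) and the Fos family (right), 1 bar for each library. The Jun-family bars are alike across the 4 libraries, and the Fosl1 segment shrinks from 17.9% and 12.7% in shControl to 0% and 3.12% in shLmna on 27 to 63 family counts.

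The summed Jun family stood at 119 and 124 CPM in shControl and at 108 and 115 CPM in shLmna. The summed Fos family stood at 8.67 and 16.9 CPM in shControl and at 10.7 and 8.72 CPM in shLmna. Jun-family counts thus outnumbered Fos-family counts 13.7-fold and 7.35-fold in the shControl libraries and 10.1-fold and 13.2-fold in the shLmna libraries. The ratio overlapped between the groups and was lowest in shControl 2, the library with the most Fos counts.

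Atf3 (chromosome 1, 191170296 to 191218039, minus strand), a stress-induced partner of Jun, had 47 and 49 counts in shControl, against 33 and 41 in shLmna. Its levels were 14.56 and 13.12 CPM against 13.05 and 11.17 CPM. The shLmna libraries were the lower ones by a narrow margin, and the log2 fold change was -0.20 ± 0.255 (SE, edgeR adjusted p = 0.647). Ier2 (chromosome 8, 84661331 to 84662852, minus strand), a nuclear early response protein, went the other way: 147 and 163 counts in shControl, against 117 and 209 in shLmna, or 45.5 and 43.6 CPM against 46.3 and 56.9 CPM. Both shLmna libraries were above both shControl libraries, shLmna 1 by a small step, and the log2 fold change was 0.22 ± 0.168 (SE, edgeR adjusted p = 0.419).

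Egr1 (chromosome 18, 34859823 to 34864984, plus strand), a zinc finger factor and a sensitive readout of serum response factor, was close to the limit of detection. It had 6 and 5 counts in shControl, against 8 and 6 in shLmna, and did not pass the filter. The pooled level in shLmna was 1.46 times that of shControl, with an exact 95% counting interval of 0.617 to 3.56, and without the filter edgeR gave a log2 fold change of 0.54 (adjusted p = 0.728). Its relatives Egr2 and Egr3 were lower still: Egr2 had 1 count, in shControl 1, and Egr3 had none.

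Myc (chromosome 15, 61985391 to 61990374, plus strand), a basic helix-loop-helix factor that drives ribosome production and growth, was the most abundant of the 10 genes. It had 367 and 389 counts in shControl, against 257 and 442 in shLmna, or 114 and 104 CPM against 102 and 120 CPM. The shLmna libraries enclosed the shControl libraries. The group means were 109 ± 6.74 and 111 ± 13.3 CPM (SD, n = 2), at the 79.9th percentile of tested genes, and the log2 fold change was 0.03 ± 0.137 (SE, edgeR adjusted p = 0.904). The 95% interval ran from 0.828-fold to 1.27-fold. Mycn and Mycl, the other members of the Myc family, had no counts in any library.

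Over the 8 tested genes, 0 were called higher in edgeR, against 5.48% of all tested genes, and 0 were called lower, against 9.74%. None had an unadjusted p under 0.05 in edgeR or DESeq2, and DESeq2 called 0. The adjusted p-values in edgeR ran from 0.419 to 0.907. The 2 groups did not overlap in 3 of the 8 genes (Jun, Atf3 and Ier2), against 60.1% of all tested genes. The median log2 fold change of the 8 was -0.12, against -0.0011 over all tested genes, and the median size of the change was 0.16 against 0.29. The 95% intervals of 6 genes lay inside a 2-fold change in both directions, while those of Fos (-1.26 to 1.01) and Fosl2 (-1.66 to 0.75) reached it. Jund and Myc changed sign with the library left out or with a correction for GC content, within a range of -0.29 to 0.15 (log2). Fos (-0.73 to 1.08), Fosl2 (-1.23 to 0.16) and Junb (-0.1 to 0.31) also changed sign with the library left out. A p-value above the threshold does not show that levels were equal, and the intervals give the sizes of change that these libraries leave possible.

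**Figure D3:**
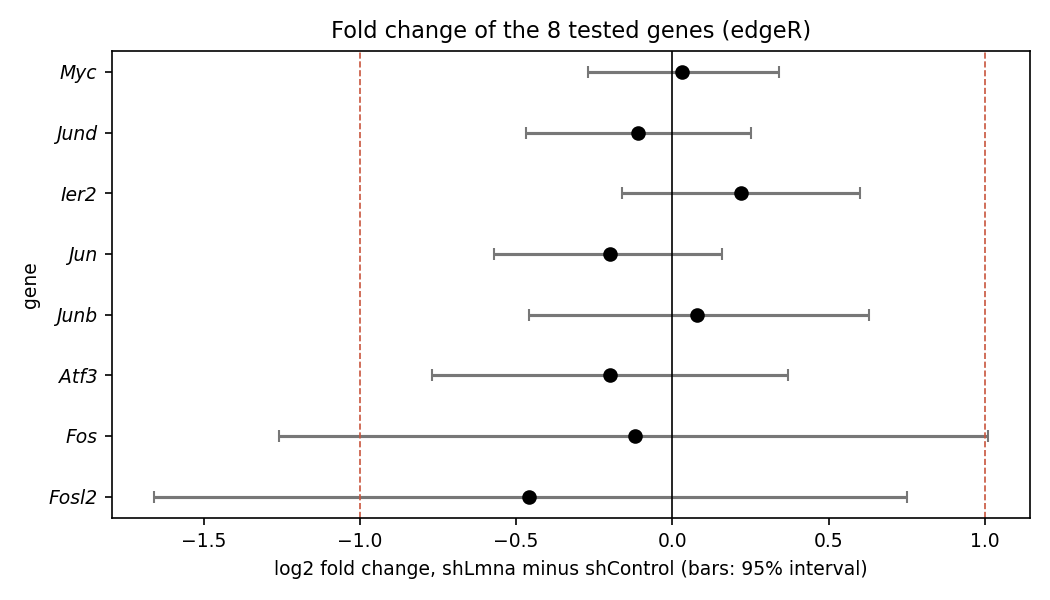
Log2 fold change of the 8 tested genes in edgeR (horizontal axis, shLmna minus shControl) with 95% intervals as bars, ordered from the most to the least abundant gene, and a 2-fold change in either direction as dashed lines. All 8 intervals include 0, and those of Fos and Fosl2 extend past a dashed line.

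The surrounding pathway was then read from 9 lists with 185 genes, of which 148 were tested, 11 were higher and 12 were lower in shLmna. Over all tested genes 5.48% were higher and 9.74% lower, and the counts that follow describe the genes, with no list set apart from this background. Of these 23 calls, 6 (Lmna, Zfp36l1, Rhob, Nr4a3, Atf1 and Rrs1) passed in all 14 alternatives. Of 19 other partners in AP-1 dimers, 13 were tested, 2 rose and 1 fell, with a median log2 fold change of -0.06. Atf1, a CREB-family factor, had 117 and 216 counts in shControl, against 19 and 62 in shLmna (log2 fold change -1.89 ± 0.343, SE, edgeR adjusted p = 0.00564). Atf2, a partner of c-Jun that JNK and p38 phosphorylate, had 10 and 37 counts against 62 and 74 (1.73 ± 0.403, edgeR adjusted p = 0.0185), with a fold change of 2.82 (log2) without shControl 2 and an adjusted p of 0.0681 without shLmna 1. The 2 groups did not overlap for either gene, and each differed over 2-fold between libraries of 1 group. Jdp2, a repressor that pairs with Jun, rose from 31.5 ± 2.45 to 50.8 ± 9.81 CPM (SD, n = 2, edgeR adjusted p = 0.0422), a call lost in DESeq2 and without shControl 1 or shLmna 1. Fosb, the remaining Fos-family gene, had 3 counts in all.

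Of 34 other immediate early genes, 25 were tested, 1 rose and 2 fell, with a median log2 fold change of -0.15. Zfp36l1 had 200 and 206 counts in shControl, against 6 and 7 in shLmna (-4.77 ± 0.275, SE, edgeR adjusted p = 8.07e-06). Its level was 58.6 ± 4.8 CPM in shControl and 2.14 ± 0.329 CPM in shLmna (SD, n = 2), a wide gap with tight replicates. Zfp36, which encodes the related protein tristetraprolin, was at 11.1 ± 1.29 CPM in shControl and 7.98 ± 0.659 CPM in shLmna and did not pass the test (adjusted p = 0.311 in edgeR). Among all tested genes with a sequence, the 390 with the nonamer were lower in 12.3% and higher in 4.87%, against 9.67% and 5.49% of those without it. The 939 genes with 4 or more pentamers, the class of Fos, Fosl2 and Jun, were lower in 19.9% and higher in 6.92%, against 8.58% and 5.29% of the others. Both classes were also lower in GC content, with a median of 43.1% against 47.1% for the nonamer and 38.1% against 48% for the pentamers, and low GC content itself went with more lower calls. The part of GC content in these shares was not tested.

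Rhob, a small GTPase gene of the early response, had 301 and 364 counts in shControl, against 77 and 141 in shLmna (-1.45 ± 0.16, SE, edgeR adjusted p = 0.000316). Nr4a3, an orphan nuclear receptor, rose from 56.7 ± 1.36 to 95.1 ± 3.53 CPM (SD, n = 2, edgeR adjusted p = 0.00569). Its relative Nr4a1 was at 107 ± 2.77 and 96.5 ± 8.47 CPM (adjusted p = 0.461). Further early response genes were also without a call: Dusp1, a phosphatase of stress kinases, at 24.2 ± 0.961 and 19.4 ± 0.498 CPM (adjusted p = 0.349) and Ier3 at 120 ± 14.6 and 116 ± 7.83 CPM (adjusted p = 0.83).

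Of 21 genes that signal to immediate early genes, 16 were tested, 2 rose and 1 fell, with a median log2 fold change of 0.06. Mapk3, which encodes the kinase ERK1, fell from 138 ± 3.99 to 89.1 ± 15 CPM (SD, n = 2, edgeR adjusted p = 0.0171), a call lost without shLmna 2 (adjusted p = 0.155). Elk3, a ternary complex factor, rose by 1.04 ± 0.271 (log2, SE, edgeR adjusted p = 0.0296), lost in DESeq2 and without shControl 1, shLmna 1 or shLmna 2. Of 12 feedback genes of ERK output, 10 were tested (median 0.15, log2) and 1 rose: Etv5, an ETS factor, with 9 and 4 counts in shControl, against 22 and 29 in shLmna (2.11 ± 0.479, SE, edgeR adjusted p = 0.0161), a call lost without shLmna 1 and in DESeq2 (adjusted p = 0.132).

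Of 22 genes known as AP-1 targets, 16 were tested, 2 rose and 0 fell (median 0.14, log2). Ccnd1, which encodes cyclin D1, rose from 234 ± 10.5 to 326 ± 27.2 CPM (SD, n = 2, edgeR adjusted p = 0.03). Mt2, a metallothionein gene, rose by 0.49 ± 0.105 (log2, SE, edgeR adjusted p = 0.012). Both rose by less than 2-fold, and both calls were lost when either shLmna library was left out.

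Of 28 cofactors and relatives of Myc, 22 were tested (median 0.04, log2), 1 rose (4.55%, against 5.48% of all tested genes) and 1 fell (4.55%, against 9.74%). Skp2, a ubiquitin ligase subunit that acts on Myc, rose by 0.72 ± 0.19 (log2, SE, edgeR adjusted p = 0.0308), and Ruvbl1, an ATPase of chromatin complexes, fell by 0.50 on the log2 scale (edgeR adjusted p = 0.0194). Both calls were lost when either shLmna library was left out, and that of Skp2 also without shControl 1 and in DESeq2. Max, the dimer partner of Myc, was at 155 ± 10.1 CPM in shControl and 191 ± 5.08 CPM in shLmna (SD, n = 2), and this difference did not pass the test (edgeR adjusted p = 0.124). Of 32 genes known as Myc targets, 31 were tested, 2 rose and 4 fell, with a median log2 fold change of 0.04.

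Those that fell were Rrs1, a ribosome assembly factor, from 532 and 486 counts to 84 and 191 (-1.76 ± 0.205, SE, edgeR adjusted p = 0.000427), the spermidine synthase gene Srm (-0.66, adjusted p = 0.0101), the lactate dehydrogenase gene Ldha (-0.45, adjusted p = 0.0155) and Cdkn1a (-0.61, adjusted p = 0.00853). Cdkn1a encodes the cell cycle inhibitor p21 and is known to be repressed, not activated, by Myc, so the 4 genes that fell include targets of both signs. Ppan, a ribosome assembly gene, rose by 0.53 ± 0.146 (log2, SE, edgeR adjusted p = 0.0377). Without shLmna 1 the calls of Srm, Ldha, Cdkn1a and Ppan were lost, Ldha also without shLmna 2 and Ppan without shControl 2. Tfrc, the transferrin receptor gene, had 11 and 178 counts in shControl, against 507 and 626 in shLmna (edgeR adjusted p = 0.0106). The size of that difference rested on the shControl libraries, at 1.96 (log2) without shControl 1 and 5.75 without shControl 2, and DESeq2 gave an adjusted p of 0.299.

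Among the other lists, 1 of 6 tested heat shock genes, listed as a sign of stress at harvest (median -0.03, log2), was called: Hspa5, an endoplasmic reticulum chaperone, fell by 1.46 on the log2 scale (edgeR adjusted p = 0.015, DESeq2 adjusted p = 0.182), by 2.17 without shLmna 1 and by 0.98 without shLmna 2. Of 9 genes of the lamina and its partners, Lmna and Lemd3 fell (median -0.06, log2), Lemd3 on 17 and 23 counts against 5 and 7 (edgeR adjusted p = 0.0465, and 0.595 with a GC correction), a call also lost without shControl 2 or either shLmna library.

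**Figure D4:**
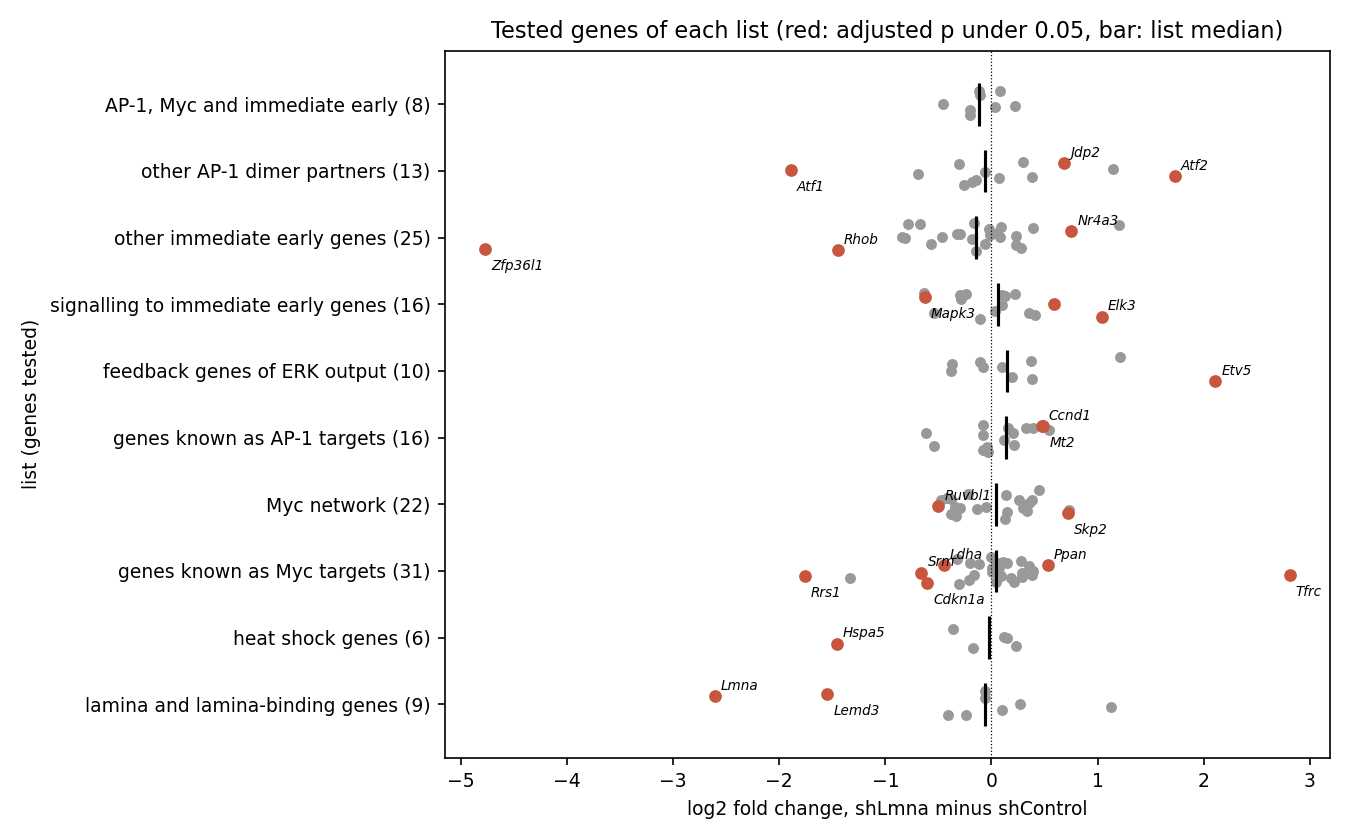
Log2 fold change (horizontal axis, shLmna minus shControl) of each tested gene in the AP-1, Myc and immediate early group and in the 9 pathway lists (vertical axis, number tested in parentheses), with calls at an edgeR adjusted p under 0.05 in red, with gene names at the calls described in the text, and list medians as black bars. The top row holds no red point, and the widest spread is among the other immediate early genes, from -4.77 for Zfp36l1 to 1.20.

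Calls were uneven over the GC content of the counted 3′ ends. Of tested genes at or under 36% GC, 38.8% were lower in shLmna, against 4.1% of those between 44% and 48%. The 10 genes spanned 37.3% (Fosl2) to 63.4% (Jund), with a median of 46.2% against 46.9% of tested genes. None lay in the lowest bin. Fosl2 fell in the bin from 36% to 40%, in which 16.7% of genes were lower. Fosl1, at 54.1%, fell in a bin with 6.26% lower. With an offset for GC content, Myc had a log2 fold change of -0.03 and Jund of 0.07, and no member of the group was called.

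Several called neighbours did lie in the lowest bin. Zfp36l1 (31.1% GC), Atf1 (34.8%), Atf2 (34.4%) and Lemd3 (32.7%) were all at or under 36%. With the GC offset the log2 fold change of Zfp36l1 was -3.30 (edgeR adjusted p = 0.00051), that of Atf1 -1.17 (0.0246) and that of Atf2 2.56 (0.00138), whereas Lemd3 was at -0.41. Rhob (43%) and Nr4a3 (41.6%) lay outside that bin.

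**Figure D5:**
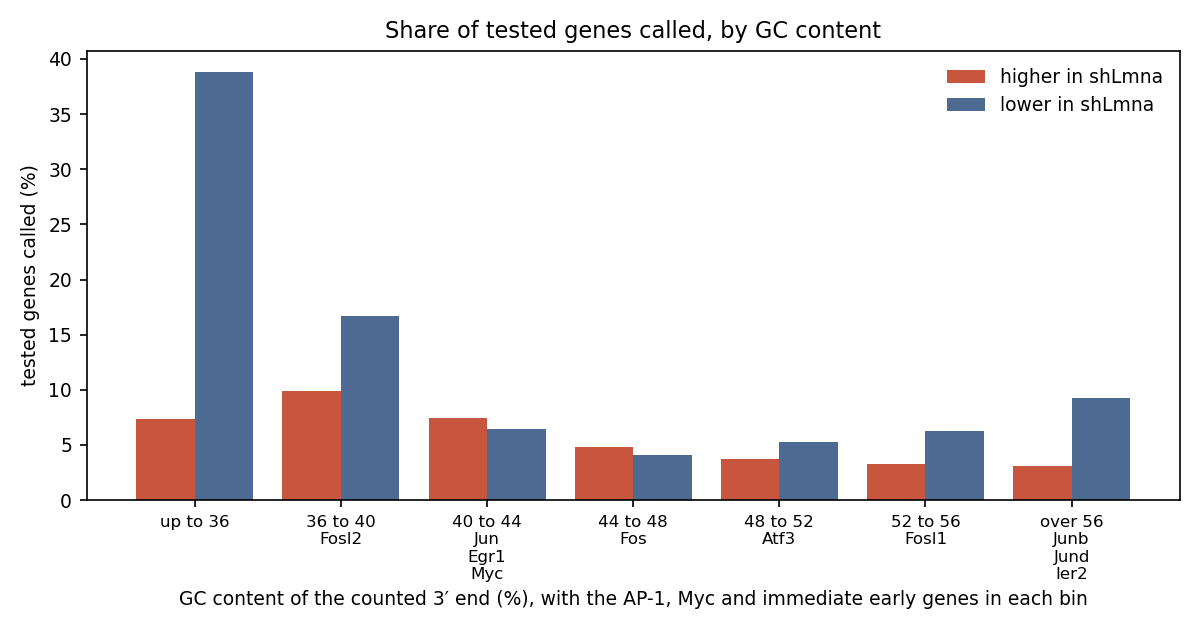
Share of tested genes called higher (red) or lower (blue) in shLmna (vertical axis, percent, starting at 0) by the GC content of the last 1000 transcript bases (horizontal axis, percent), with the AP-1, Myc and immediate early genes written under their bin. The lowest bin, with 38.8% of genes lower, holds none of the 10 genes.

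Promoters from 250 bases before to 50 bases after the start, from RefSeq, were at hand for 6 of the 10 genes (Fos, Fosl2, Jun, Junb, Jund and Atf3). That start can differ from the gene start given above. The windows of Fosl2 (chr5:32136222-32136521), Jund (chr8:70697489-70697788) and Atf3 (chr1:191183284-191183583) do not include the latter. They were searched on both strands for TGACTCA, for the CRE TGACGTCA, for the Myc-type E-box CACGTG and for the CArG box of serum response factor. None of the 6 windows held an exact match, against 5.2%, 1.79%, 7.15% and 1.63% of 32851 promoters. These letters are absent from the windows searched, and nothing follows about the factors.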

How the data were processed

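Per the study's methods, the authors trimmed MARS-seq reads with Cutadapt, aligned them to mm10 with STAR 2.4.2a and counted them over the final 1000 bases of each RefSeq gene plus 100 bases downstream with HTSeq (UTAP pipeline). They deposited raw counts per gene, the input of every main test. The methods also describe a UMI count, made with a modified HTSeq-count once duplicates had been marked. It is not stated whether the deposited raw counts were made before or after that step. Another deposited table gave the signal of each gene (counts divided by a DESeq2 size factor) and the authors' p-values for the groups, which were not used. From the signal, 100% of values gave whole counts within 0.01, and the matrix exceeded them 1.08 to 1.09-fold. A last deposited table held log2 values corrected by the authors with ComBat for unnamed batches.

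Counts of 2 shControl and 2 shLmna libraries were tested with edgeR 4.0.16 (R 4.3.3: TMM, filterByExpr, quasi-likelihood F test on group, two-sided, Benjamini-Hochberg over 9150 genes, threshold 0.05). Intervals are 95%. Alternatives were DESeq2 1.42.0, other scalings, no filter, each library left out, a replicate block, recovered counts, limma 3.58.1 on the ComBat values, and a loess offset on GC content (span 0.5, known for 96.3% of tested genes). The edgeR script was checked on simulated data. Annotation was GENCODE on GRCm38, the same assembly as mm10. The genes and lists were chosen with earlier results of these data known. Named were all 10 genes, Lmna, called genes of each list, and Egr2, Egr3, Nr4a1, Dusp1, Zfp36, Ier3, Max, Mycn and Mycl whatever their p. A called gene of the lists is not reported here. The precision of a level is set by its count, 3 or fewer in both libraries of a group being treated as the floor.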

Additional observations from a re-analysis of the deposited data

How the results depend on the processing

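The limits below come from 2 libraries a group and from low counts of Fos, Fosl2, Fosl1 and Egr1. Of the 8 tested genes, none was called under any of the 14 alternatives. Their log2 fold changes kept direction in 102 refits and reversed in 10: Myc was -0.03 and Jund 0.07 with the GC offset, and -0.04 and 0.06 with GC offset and replicate block. With 1 library left out, the range was -0.73 to 1.08 for Fos, -1.23 to 0.16 for Fosl2, -0.10 to 0.31 for Junb, -0.29 to 0.03 for Jund and -0.10 to 0.15 for Myc, and that of Ier3 was -0.18 to 0.07, with 0.01 without shLmna 2. In the ComBat-corrected values 1 of the 10 genes was lower, Fosl1, and the cause was not tested. Calls were common in that setting, which had no filter on low counts, with 1784 genes higher and 1992 lower. The main test, after the filter, gave 501 and 891. Family shares kept their values within the spread with recovered counts. Over the 9150 genes of the main test, 501 were higher and 891 lower. DESeq2 and the ComBat-corrected values were run without its filter, so their counts refer to another set of genes. The counts were 218 and 592 in DESeq2, 1784 and 1992 in the ComBat-corrected values, and 166 to 706 and 525 to 1172 with 1 library left out, lowest without shLmna 1 (202 higher without shLmna 2). With the replicate block 852 were higher and 1220 lower, and 1014 were higher with GC offset and block. Libraries that share a replicate number did not deviate together (correlation 0.0129 over 9150 genes). Whether they were paired by design is not stated, and the block changed no call among the 8 genes. Of the other named genes, 40 refits lost a call and 2 gained one. No group has the 4 libraries needed to test for a sample that stands apart.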
